A study of Mus musculus with 65 samples.

Results

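The ligands of the epidermal growth factor (EGF) family and the ErbB receptors were examined in mouse mammary glands and in mouse mammary tumours that lack p53. The set named 10 genes, which are the ligands Areg, Epgn, Ereg, Hbegf, Btc, Egf and Tgfa and the receptors Egfr, Erbb2 and Erbb3. Members were every probe set (a group of short probes for 1 transcript) that the array annotation pairs with a single one of these genes. That gave 20 probe sets for 9 of the 10 genes, among 18194 genes in all. The probe sets used below were 1449994_at (Epgn), 1419431_at (Ereg), 1418350_at (Hbegf), 1435541_at (Btc), 1418093_a_at (Egf), 1421943_at (Tgfa), 1435888_at (Egfr), 1424919_at (Erbb2) and 1434606_at (Erbb3). Areg, the amphiregulin gene, was not analysed here. The 9 measured genes were 6 of the 7 ligands and all 3 receptors, and Egfr alone had 7 probe sets.

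EGF family ligands are made as membrane-anchored proteins, and proteases of the ADAM class cut them loose. A released ligand joins receptors of the ErbB class into pairs that switch on the RAS and ERK kinases and the PI3 kinase pathway. Egfr binds all of these ligands, Erbb2 binds none and serves as a partner, and Erbb3 has little kinase activity of its own and binds neuregulins. In the mammary gland this system is best known for duct growth at puberty, in which amphiregulin from hormone-sensing cells acts on Egfr of the surrounding stroma.

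Messenger RNA had been measured on Affymetrix arrays in 17 glands and 48 tumours to ask whether low-dose radiation acts on the gland through TGF-beta, a growth inhibitor. Glands came from BALB/c littermates aged 10 weeks, wild-type or heterozygous for Tgfb1, the gene of TGF-beta 1, all of them injected with estrogen and progesterone before a dose of 10 cGy or a sham exposure. They comprised 3 wild-type sham glands, 3 wild-type glands 1 week and 3 wild-type glands 4 weeks after 10 cGy, 3 heterozygous sham glands, and 2 and 3 heterozygous glands 1 and 4 weeks after 10 cGy. Because sham glands were collected at 1 week only, 4-week and sham glands also differ in time since exposure. If 10 weeks was the age at exposure, they differ in age at collection too. The lymph node of each inguinal gland had been taken out before its posterior portion gave the RNA. The tumours arose from p53-null mammary fragments placed in fat pads cleared of the host's own epithelium. Hosts were wild-type or Tgfb1 heterozygous and had been irradiated or sham-irradiated before they received the fragments. This gave 9 tumours from sham and 23 from irradiated wild-type hosts, and 6 from sham and 10 from irradiated heterozygous hosts. Only the host differed in Tgfb1, and no host dose is stated in the labels.

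Defining markers of the labelled tissues were present. The mean log2 level of 14 luminal keratin and junction genes was 9.71 to 10.5 in glands. In tumours it was 6.53 to 12.4 and left a gap, with 11 tumours at or below 10.3 and 37 at or above 11.2. The 11 luminal-low tumours were 2 from sham and 5 from irradiated wild-type hosts and 2 each from sham and irradiated heterozygous hosts. Skeletal muscle genes averaged above 8 in 4 glands, all wild-type (sham repeats 2 and 3, and repeat 3 at 1 week and at 4 weeks), and B cell genes were high in 3 glands (repeat 1 of wild-type sham, wild-type 1 week and heterozygous sham). In whole tissue, fewer cells of a type and less RNA per cell cannot be told apart. The labels disagreed on the host treatment of 1 tumour, repeat 1 of the irradiated wild-type hosts, which was placed by its title. Values are log2 levels of the brightest probe set of each gene, with gland and tumour scales kept apart and no level compared between genes.

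Among the gland ligands, Epgn, which encodes epigen, differed most between groups. It was higher in heterozygous than in wild-type sham glands and lower in irradiated than in sham heterozygous glands, but no difference passed the adjusted threshold of 0.05. Its promoter is printed because Epgn carries the largest gland differences. The stretch is chr5:91027267-91027566 of build GRCm38.p6, plus strand, from RefSeq, and holds 250 bases before and 50 after the annotated start.
Epgn: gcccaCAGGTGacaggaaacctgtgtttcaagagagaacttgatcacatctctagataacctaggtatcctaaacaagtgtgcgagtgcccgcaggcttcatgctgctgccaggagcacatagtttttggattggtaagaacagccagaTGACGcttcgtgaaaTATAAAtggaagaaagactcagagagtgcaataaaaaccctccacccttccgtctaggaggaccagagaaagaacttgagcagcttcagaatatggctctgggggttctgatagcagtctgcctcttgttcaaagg
Capitals mark motif matches on either strand. They are a TATA box (TATAAA), an E-box (CACCTG, here as its reverse complement CAGGTG) and a short cyclic AMP response motif (TGACG). Of 32544 mouse promoters of the same length, 13.6% hold that TATA sequence, 20.3% the E-box and 20.9% the cyclic AMP motif. The GC box (GGGCGG), an ETS motif (GGAAGT) and the AP-1 motif (TGANTCA) had no match in this window. A match is a description of letters, not a measured binding site.

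In wild-type sham glands Epgn measured 3.88, 4.10 and 5.56. At 1 week after 10 cGy the wild-type glands measured 4.43, 4.69 and 5.05, and at 4 weeks 4.44, 3.39 and 3.61. Wild-type arrays thus overlapped between the sham and irradiated groups, with sham repeat 3 as the highest of the 9. In heterozygous sham glands Epgn measured 5.88, 6.68 and 6.38, above each of the other 14 glands. Heterozygous glands measured 5.35 and 4.75 at 1 week and 4.04, 4.81 and 4.53 at 4 weeks, below all 3 heterozygous sham glands. By mean, the order was heterozygous sham (6.32 ± 0.40), heterozygous 1 week (5.05 ± 0.42), wild-type 1 week (4.72 ± 0.31), wild-type sham (4.51 ± 0.91), heterozygous 4 weeks (4.46 ± 0.39) and wild-type 4 weeks (3.81 ± 0.56, SD, n = 3 arrays a group except 2 for heterozygous 1 week). Only the first step in that order separated groups that did not overlap.

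**Figure D1:**
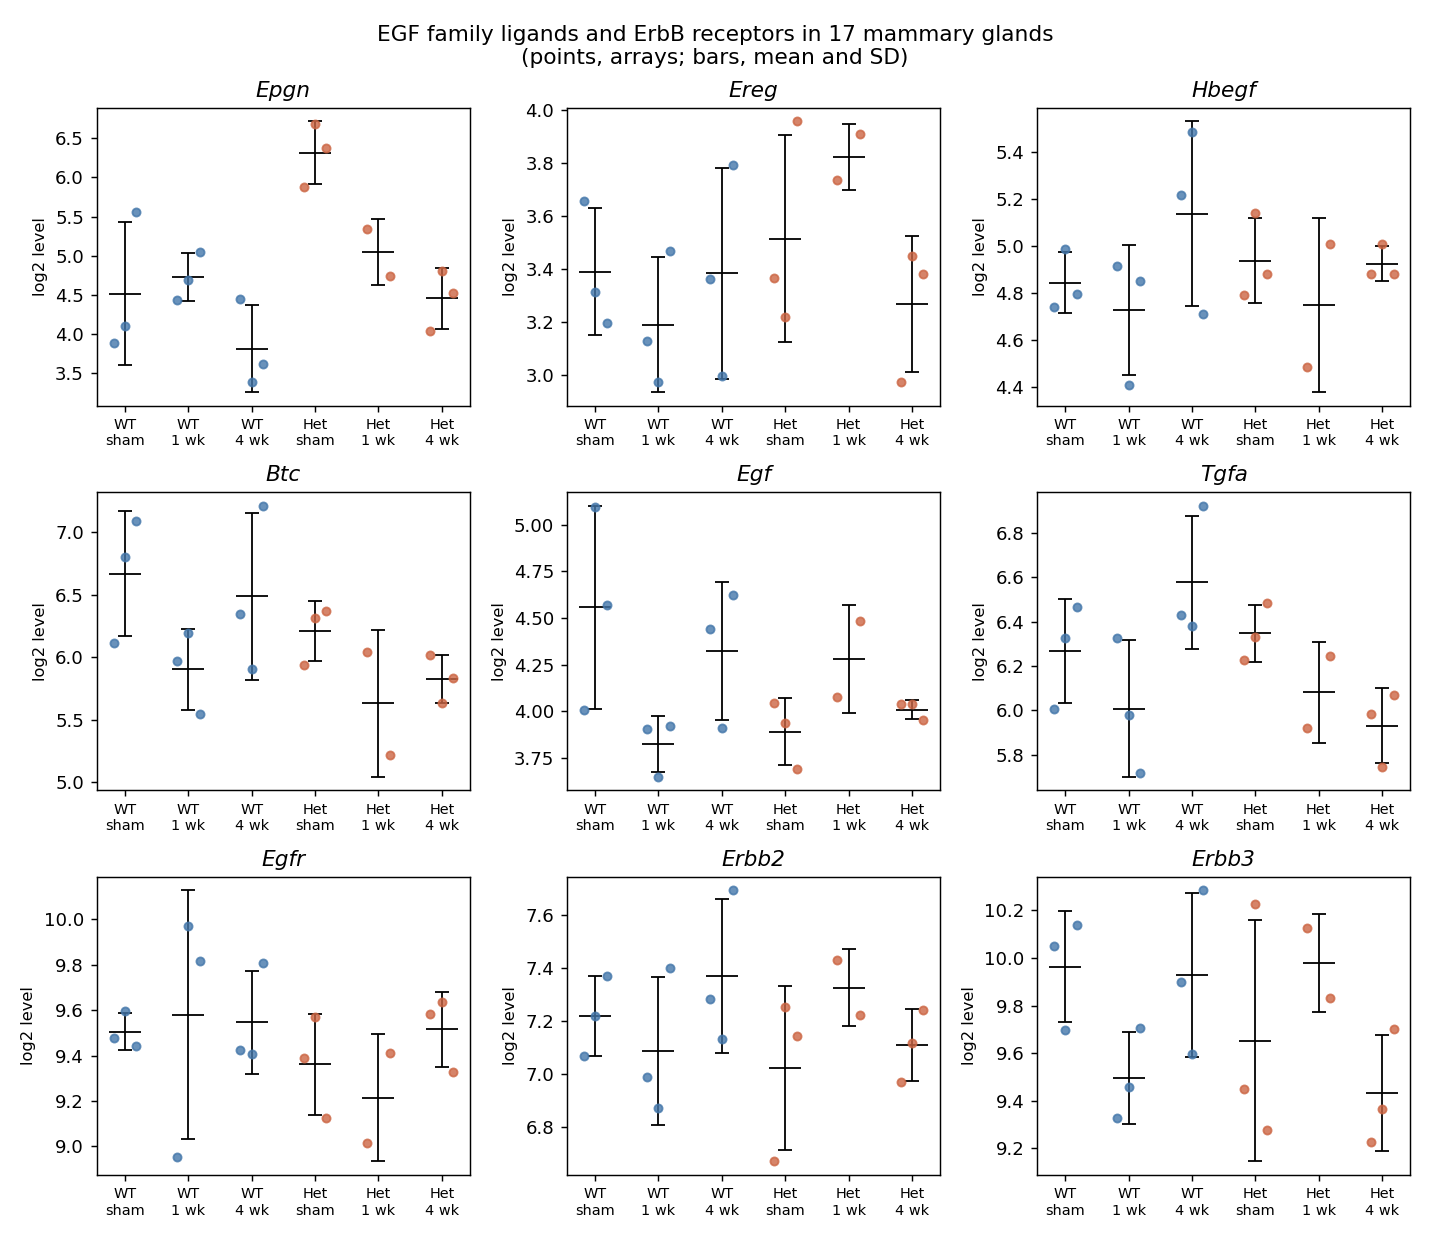
Log2 level (vertical axis) of 9 members in 17 glands by group, where WT is wild-type, Het is Tgfb1 heterozygous and weeks count from 10 cGy; points are arrays and bars are mean and SD. Epgn in the 3 heterozygous sham glands, at 5.88 to 6.68, lies above the other 14 glands, while the receptor groups overlap for the most part.

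The heterozygous minus wild-type difference of Epgn in sham glands was 1.80 (SE 0.40, unadjusted p = 0.000462, limma adjusted p = 0.965). The arrays did not overlap, which held for 7.94% of the 12945 genes tested in that comparison. From heterozygous sham to 4 weeks the difference was -1.86 (SE 0.40, p = 0.000352, limma adjusted p = 0.253), and non-overlap held for 11.9% of genes. At 1 week against heterozygous sham it was -1.27 (SE 0.45, p = 0.0127, limma adjusted p = 0.995), with 16.5% of genes not overlapping. All 3 comparisons use the same 3 heterozygous sham glands, so they are not independent of each other. Among irradiated glands, which leave those arrays out, heterozygous minus wild-type was 0.32 (SE 0.45) at 1 week and 0.65 (SE 0.40) at 4 weeks.

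Averaged over sham, 1 week and 4 weeks, Epgn was 0.92 higher in heterozygous glands (SE 0.24, p = 0.00171, limma adjusted p = 0.203). Averaged over genotypes, it was -0.75 at 4 weeks relative to 1 week (SE 0.30, p = 0.0251, limma adjusted p = 0.261). Whether the response differed by genotype was also fitted, in comparisons added after the data were seen. The change at 1 week was -1.48 (SE 0.60, p = 0.0267, limma adjusted p = 1.00) in heterozygous relative to wild-type glands, and at 4 weeks it was -1.16 (SE 0.57, p = 0.0593). Without wild-type sham repeat 3 the adjusted p of the 4-week difference in heterozygotes was 0.0711, the smallest over 28 alternatives, which reached 0.740.

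The level of Epgn in several wild-type glands lay below 4.15, the log2 level used to set dim genes aside, so its wild-type values are near the low end of the array. Luminal markers moved in the same direction: their mean was 9.85 to 10.5 in heterozygous sham and 9.71 to 10.0 in heterozygous 4-week glands. With the luminal mean as a covariate the Epgn difference was -1.37. Stratified epithelium markers averaged 4.46 to 4.65 in heterozygous sham and 4.24 to 4.55 in heterozygous 4-week glands. The part of these markers in the result beyond that fit was not tested.

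Tgfa, the gene of transforming growth factor alpha, was lowest in heterozygous glands at 4 weeks. Wild-type glands measured 6.01, 6.33 and 6.47 in sham, 6.33, 5.98 and 5.72 at 1 week and 6.43, 6.38 and 6.92 at 4 weeks. Heterozygous glands measured 6.23, 6.33 and 6.48 in sham, 5.92 and 6.24 at 1 week and 5.98, 5.74 and 6.07 at 4 weeks. The 3 heterozygous 4-week glands lay below all sham heterozygous glands and below all 4-week wild-type glands. Heterozygous minus wild-type at 4 weeks was -0.65 (SE 0.19, p = 0.00392, limma adjusted p = 0.635), in a comparison where 12.4% of genes did not overlap. Against heterozygous sham the same 3 glands differed by -0.42 (SE 0.19, p = 0.0437, limma adjusted p = 0.934). The added comparison of the 4-week response between genotypes gave -0.73 (SE 0.27, p = 0.0159, limma adjusted p = 1.00). The other Tgfa probe sets did not follow this one. Over glands their correlations with it were -0.04 and -0.65, and with the mean of all 3 probe sets the differences shrank to -0.13 and -0.12. Epithelial markers moved with the genotype difference at 4 weeks and did not overlap either. The luminal list mean was 10.1 to 10.3 in wild-type and 9.71 to 10.00 in heterozygous 4-week glands, and the basal list mean 9.30 to 9.72 and 9.11 to 9.25. With the luminal mean as a covariate the Tgfa difference was -0.51, and the part of the basal markers was not tested.

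Btc, the gene of betacellulin, which can bind Egfr and ErbB4, was lower at 1 week than in sham wild-type glands. Sham values were 6.12, 6.80 and 7.09 and 1-week values 5.97, 6.19 and 5.55, overlapping by 1 array of each group. That difference was -0.77 (SE 0.33, p = 0.0328, limma adjusted p = 0.958). It was -0.04 without the 4 muscle-rich glands. These include sham repeats 2 and 3, the high ones, but also repeat 3 at 1 week, the lowest of its group. Sham repeat 1 is then the only array of its group, so that value rests on a single sham gland. With the muscle list mean as a covariate and all arrays kept, the difference was -0.72. At 4 weeks wild-type glands measured 6.34, 5.90 and 7.21, with muscle-rich repeat 3 again the highest. Heterozygous Btc values were 5.94, 6.32 and 6.37 in sham, 6.04 and 5.22 at 1 week and 6.02, 5.63 and 5.84 at 4 weeks. Over the 3 conditions heterozygous glands were 0.46 lower, at -0.46 (SE 0.20, p = 0.0323, limma adjusted p = 0.379). Without the muscle-rich glands this was -0.22, again with sham repeat 1 alone in the wild-type sham group.

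**Figure D2:**
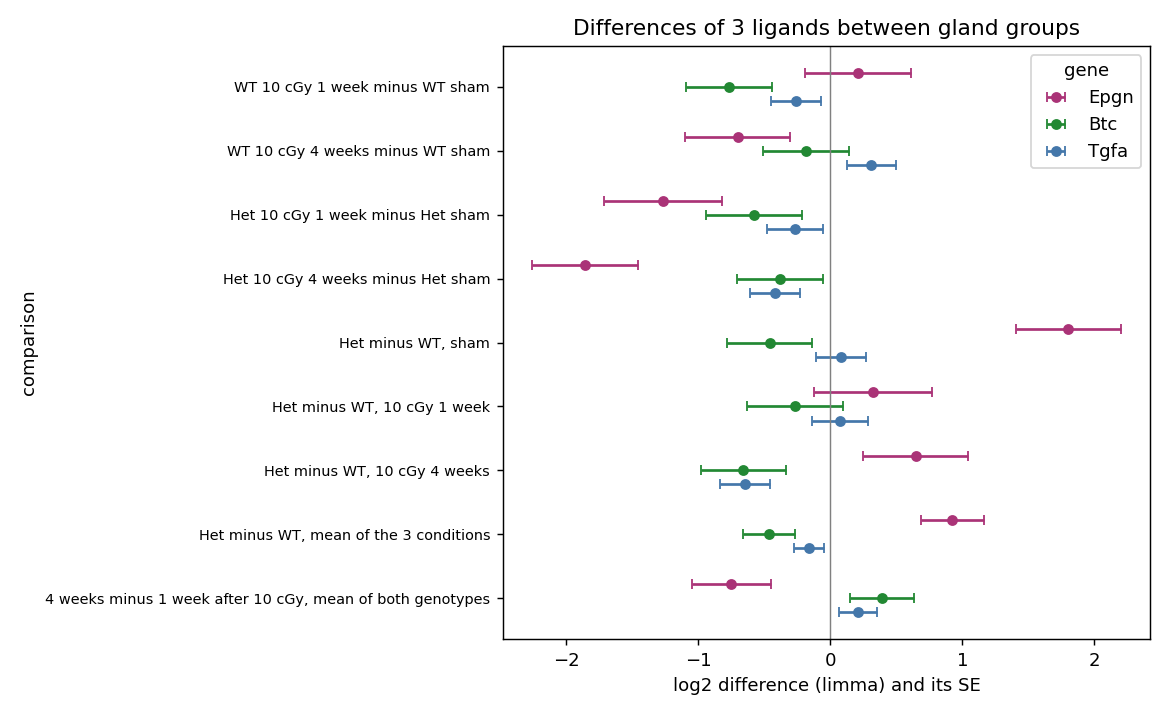
Log2 differences from limma (horizontal axis) of Epgn, Btc and Tgfa in 9 gland comparisons (vertical axis); points are estimates and bars their SE. Epgn spans -1.86 to 1.80, and Btc and Tgfa stay between -0.77 and 0.39.

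Like Epgn in wild-type glands, the remaining ligands were near or below the 4.15 filter in glands. Hbegf, the gene of heparin-binding EGF-like growth factor, lay between 4.41 and 5.49 over the 17 glands, and its 9 differences were -0.21 to 0.29. Egf itself averaged 4.14 and Ereg, the epiregulin gene, 3.40. Both fell below the 4.15 filter, so they were not among the genes tested. Egf measured 4.00, 5.10 and 4.57 in wild-type sham and 3.91, 3.65 and 3.92 at 1 week, which did not overlap, as held for 10.1% of the genes tested. In the fit with no filter that difference was -0.73 (SE 0.23, p = 0.00664, limma adjusted p = 0.957). The high Egf arrays, sham repeats 2 and 3, were muscle-rich, as was repeat 3 at 1 week, which was not high. Ereg measured 3.73 and 3.91 in heterozygous and 3.13, 2.97 and 3.47 in wild-type glands at 1 week, a difference of 0.63 without the filter (SE 0.25, p = 0.0225, limma adjusted p = 0.486).

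Egfr and Erbb2 differed by at most 0.37 between gland groups. Egfr ranged from 8.95 to 9.97, and both of those extremes were wild-type glands at 1 week (8.95, 9.97 and 9.82). Erbb2 ranged from 6.67 to 7.69. Their differences in the 9 comparisons were -0.37 to 0.15 for Egfr and -0.26 to 0.30 for Erbb2, with SE of 0.11 to 0.25. The next brightest Egfr probe set had r = 0.75 with the one used over the 17 glands, and the 5 others had r of -0.18 to 0.19. Among those 5, probe set 1454313_at was at 0.44 from wild-type sham to 1 week (p = 0.0162, limma adjusted p = 0.995) and at -0.46 between genotypes at 1 week (p = 0.0219, limma adjusted p = 0.622). Erbb3 measured 9.33, 9.46 and 9.71 in wild-type and 10.1 and 9.83 in heterozygous glands at 1 week, which did not overlap. That was a difference of 0.48 (SE 0.26, p = 0.0861), in the comparison with the most non-overlapping genes, 22.5%. At 4 weeks the genotype difference of Erbb3 had the opposite sign, at -0.49 (SE 0.23, p = 0.0524), with 9.90, 9.60 and 10.3 in wild-type and 9.23, 9.37 and 9.70 in heterozygous glands. From wild-type sham to 1 week it was -0.47 (SE 0.23, p = 0.0653), and its 9 differences ran from -0.49 to 0.48. In sham glands the groups overlapped, with Erbb3 at 10.1, 9.70 and 10.1 in wild-type and 9.45, 10.2 and 9.28 in heterozygous glands. The added 1-week comparison of responses between genotypes was 0.79 for Erbb3 (SE 0.35, p = 0.0398, limma adjusted p = 1.00).

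Of the 7 members tested in glands, 0 passed limma's adjusted threshold in each of the 9 comparisons. The share of all genes that passed was 0% in 5 of them, 0.0154% from heterozygous sham to 4 weeks and between genotypes at 4 weeks, 0.0463% in the genotype average and 0.0695% between 4 weeks and 1 week. At an unadjusted p under 0.05 the members counted 1 of 7 (Btc) from wild-type sham to 1 week, beside 4.54% of all genes, and 0 of 7 at 4 weeks, beside 2.29%. In heterozygous glands they counted 1 (Epgn) at 1 week, beside 3.96%, and 2 (Epgn and Tgfa) at 4 weeks, beside 5.29%. Between genotypes they counted 1 (Epgn) in sham glands, beside 3.55%, 0 at 1 week, beside 7.85%, and 1 (Tgfa) at 4 weeks, beside 5.96%. In the genotype average 2 (Epgn and Btc) counted, beside 12%, and 1 (Epgn) between 4 weeks and 1 week, beside 15.7%. In the added comparisons of responses between genotypes 2 (Epgn and Erbb3) counted at 1 week, beside 3.05%, and 1 (Tgfa) at 4 weeks, beside 1.78%. Members whose arrays did not overlap were 0 of 7 in both wild-type comparisons with sham, beside 10.1% of genes at 1 week and 5.91% at 4 weeks. Since the labels do not say that gland repeats came from separate animals, these p-values may reflect partly technical spread.

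The median difference of the 7 members was -0.22 from heterozygous sham to 4 weeks, where 2 of 7 were above 0. Over all genes the median was 0.01 and 52.7% were above 0. Between genotypes at 4 weeks 1 of 7 was above 0, with a median of -0.26, beside a median of 0.00 and 48.9% over all genes. In that comparison all 14 luminal and all 11 basal markers were below 0, with medians of -0.35 and -0.37, and their part in the members' median was not tested. In the other 5 pairwise gland comparisons the members' median lay between -0.19 and 0.07 and that of all genes between -0.06 and 0.01.

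Genes around the receptors were taken from 5 lists. They held ErbB4 and the neuregulins, the proteases and cofactors that shed ligands, receptor inhibitors, the relay from adaptors to kinases, and ERK feedback and target genes. In glands Erbb4 (2.41 to 2.93), Nrg1 (3.08 to 3.56) and Nrg3 (2.51 to 3.24) were dim and not tested. None of Nrg2, Nrg4 and the 9 shedding, 9 inhibitor, 17 relay and 15 ERK target genes tested passed limma's adjusted threshold in the gland comparisons, and the smallest adjusted p was 0.132. That was Socs5, a suppressor of cytokine signalling that also acts on Egfr, at 0.40 (SE 0.10, p = 0.00095) for 4 weeks minus 1 week. Grb7, an adaptor that binds Erbb2, was -0.48 (SE 0.11, p = 0.000569, limma adjusted p = 0.145) in heterozygous relative to wild-type glands on average. In the same average Egr1, an immediate early gene downstream of ERK, was -0.78 (SE 0.21, p = 0.0026, limma adjusted p = 0.240).

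From heterozygous sham to 4 weeks, Errfi1, a feedback inhibitor of Egfr kinase activity, was at 0.80 (SE 0.23, p = 0.00324) and Ier3, an immediate early gene, at -0.76 (SE 0.26, p = 0.0121). Their limma adjusted p-values were 0.583 and 0.773. At 1 week against heterozygous sham Ier3 was at -0.90 (SE 0.30, p = 0.00878) and Spry2, an ERK feedback inhibitor, at -0.44 (SE 0.17, p = 0.0205). From wild-type sham to 1 week the ERK target list had 1 of 15 genes above 0, beside 45.3% of all genes. Its median was -0.33, beside -0.02 over all genes. An unadjusted limma p under 0.05 was reached by 4 of 15, all lower. Of all genes 4.54% reached it in either direction and 2.83% were lower. Several cell type lists lay below 0 in the same comparison, with 2 of 14 luminal markers above 0 (median -0.19), 1 of 7 hormone-sensing markers (median -0.40), 1 of 9 milk genes (median -1.21) and 0 of 16 muscle genes (median -2.13). Others went up. Its mean was 10.4 at 1 week against 9.83 in wild-type sham glands. B cell, T cell, squamous and proliferation list means rose by less, but their medians were lower at 1 week. The B cell median was 4.11 at 1 week against 4.77 in sham, with the 1-week glands at 7.92, 4.09 and 4.11. The part of all these lists in the ERK target shift was not tested. Spred1, another feedback inhibitor, led the ERK targets at -0.43 (SE 0.14, p = 0.00735, limma adjusted p = 0.958).

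In tumours most members spread widely among tumours of 1 group, and the 4 host groups overlapped for every member. Over all genes the share that did not overlap was 0.0156% for irradiation in heterozygous hosts, 0.0313% between genotypes in sham hosts and 0% in the other 2 pairs of groups. Over the 48 tumours Ereg ranged from 4.03 to 12.9, Hbegf from 6.15 to 12.8, Tgfa from 4.99 to 12.1 and Epgn from 4.49 to 10.8. Btc ranged from 4.55 to 10.0 and Egf from 3.96 to 7.15, mostly near its median of 4.51. The receptors ranged from 5.03 to 10.2 for Egfr, 6.29 to 9.21 for Erbb2 and 6.51 to 11.8 for Erbb3.

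**Figure D3:**
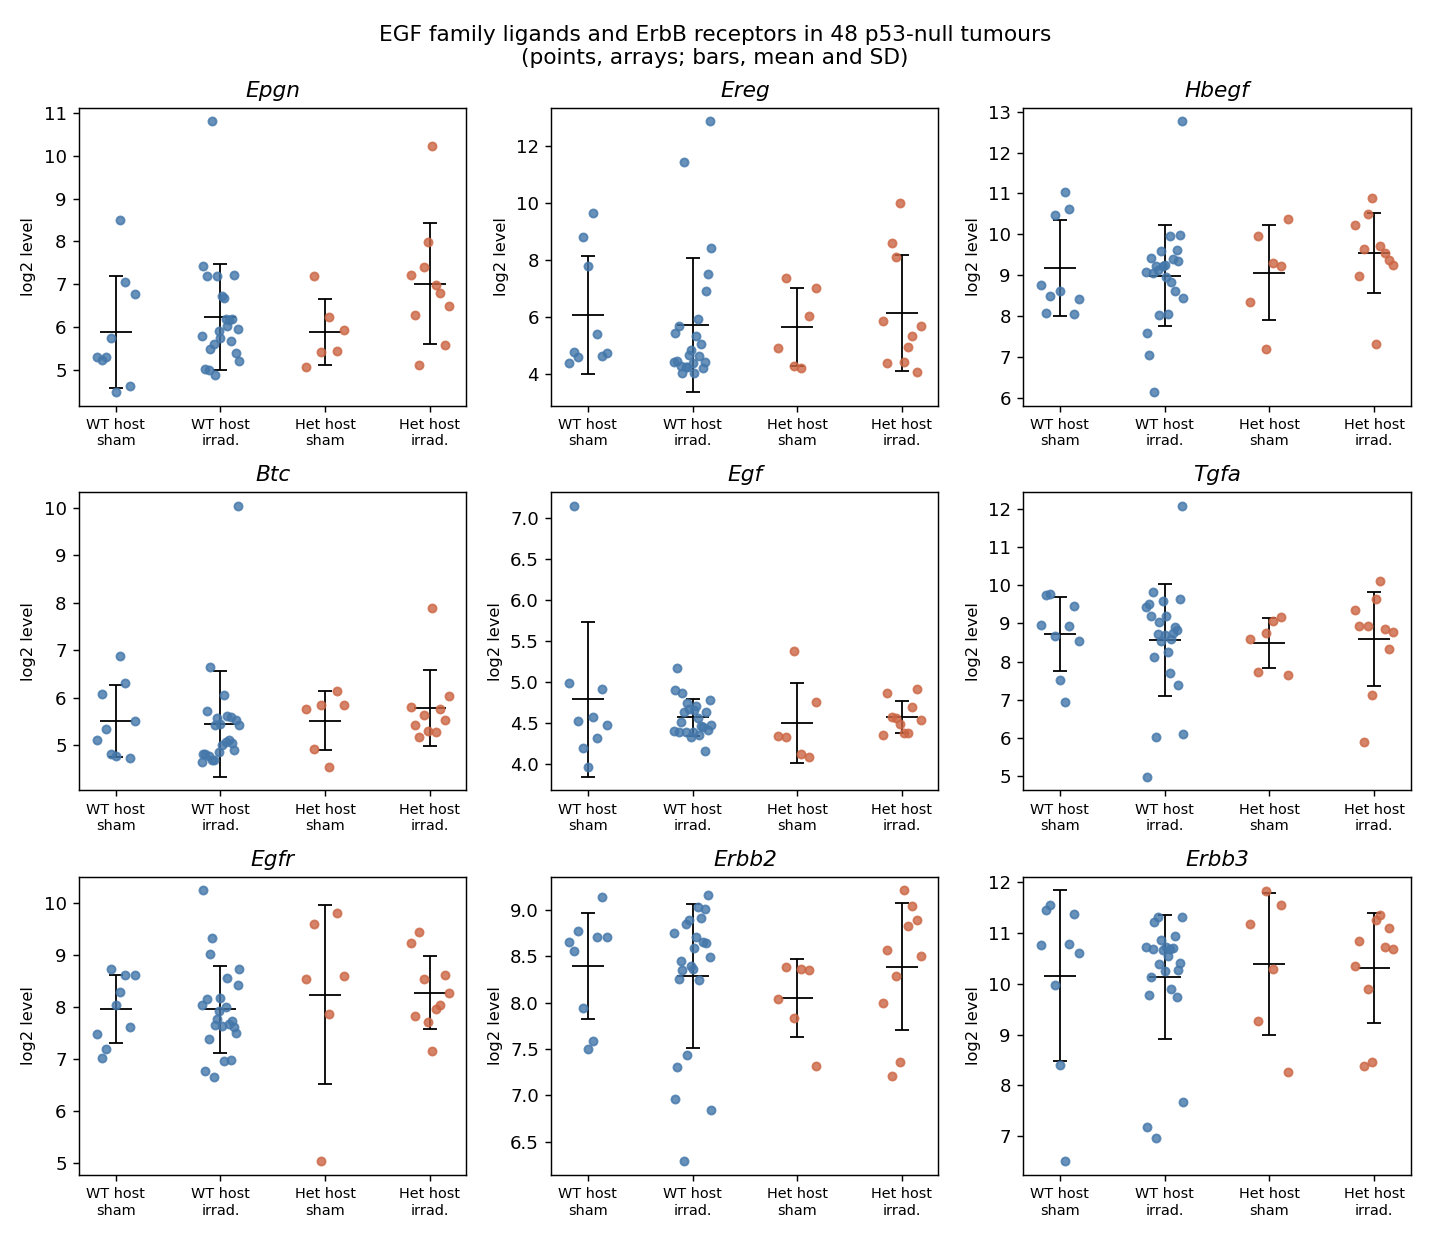
Log2 level (vertical axis) of 9 members in 48 tumours by host group, where WT and Het are wild-type and Tgfb1 heterozygous hosts and irrad. is irradiated; points are tumours and bars are mean and SD. The groups overlap in every panel, and single tumours stand far above the rest for Ereg, Btc, Egf, Tgfa and Epgn.

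Epgn had its lowest, median and highest values at 4.49, 5.30 and 8.49 in tumours of sham wild-type hosts and at 4.88, 5.96 and 10.8 in those of irradiated wild-type hosts. In sham heterozygous hosts these were 5.07, 5.68 and 7.19, and in irradiated heterozygous hosts 5.11, 6.90 and 10.2. The irradiated heterozygous group had the highest median, yet its range overlapped all others. Irradiated minus sham in heterozygous hosts was 1.13 for Epgn (SE 0.63, p = 0.0789), and heterozygous minus wild-type among irradiated hosts was 0.77 (SE 0.46, p = 0.101). Among the probe sets used, these were the smallest p-values of any member in the 5 tumour comparisons. Of the dimmer Tgfa probe sets, 1421942_s_at was at 0.20 for irradiation in wild-type hosts (p = 0.0402, limma adjusted p = 0.615). There 1450421_at was at 0.17 (p = 0.0826, limma adjusted p = 0.688), while the Tgfa probe set used was at -0.16.

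With the probe sets used, 8 members were tested in tumours, and 0 passed limma's adjusted threshold in any of the 5 comparisons. An unadjusted p under 0.05 was reached by 0 of the 8. The share of all 12786 genes past the adjusted threshold was 0% in 4 comparisons and 0.00782% between genotypes among irradiated hosts. At the unadjusted level it was 6.94% for irradiation in wild-type hosts, 3.95% for irradiation in heterozygous hosts, 5.29% between genotypes in sham hosts, 5.6% between genotypes in irradiated hosts and 4.83% for the difference of the responses. Differences of the 8 members were -0.36 to 0.35 in irradiated against sham wild-type hosts, with SE of 0.27 to 0.82. Changes of the size of such SE, and also somewhat larger ones, could not be detected with these tumour numbers.

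Among irradiated hosts all 8 tested members were higher in heterozygous than in wild-type hosts by the probe sets used. Their median was 0.32, beside 0.00 over all genes, of which 49.95% were above 0. Every marker list mean but that of proliferation (10.4 against 10.6) was also higher there. It was 7.00 against 5.95 for hormone-sensing, 8.59 against 8.10 for basal and 11.3 against 11.0 for luminal genes. The luminal medians were both 11.7. The part of these lists was not tested. In heterozygous hosts 7 of 8 were above 0 after irradiation, with a median of 0.31, beside 50.7% and 0.00 over all genes. In wild-type hosts it was 1 of 8, with a median of -0.08, beside 50.4% and 0.00. These comparisons share host groups with each other, and no member passed the test in any of them. In sham hosts 3 of 8 were above 0 between genotypes, with a median of -0.06, beside 50.1% and 0.00 over all genes. The count for irradiation in wild-type hosts takes Tgfa by the probe set used (-0.16), while its dimmer probe sets were at 0.20 and 0.17. Between genotypes among irradiated hosts Tgfa was at 0.03 by the probe set used and at 0.07 and -0.08 by the dimmer ones. The second Btc probe set was at -0.12 there and Egfr probe set 1454313_at at -0.01, while all other probe sets of these members were above 0.

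Erbb3, Erbb2, Tgfa and Ereg differed between the luminal-low and luminal-high tumours. Erbb3 was 6.51 to 11.3 (median 8.39) in the 11 luminal-low tumours and 9.73 to 11.8 (median 10.7) in the 37 luminal-high tumours, and 9 of the 11 lay below all 37. Erbb2 was 6.29 to 8.49 (median 7.31) against 7.44 to 9.21 (median 8.64), with 7 of the 11 below all 37. For Tgfa the values were 4.99 to 12.1 (median 7.12) against 7.38 to 10.1 (median 8.92), with 6 of 11 below all 37 and 1 above them all. The luminal list holds none of these genes, but the sets were drawn after the data were seen and no test is given for them.

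Ereg ran the other way. It was 4.47 to 12.9 (median 8.42) in luminal-low and 4.03 to 8.79 (median 4.68) in luminal-high tumours, and only 1 of the 37 exceeded the luminal-low median. Of 12 tumours with Ereg more than 2 log2 units above its overall median, 9 were luminal-low. They came from all 4 host groups, with 3 from sham and 4 from irradiated wild-type hosts and 2 from sham and 3 from irradiated heterozygous hosts. Egfr was 6.76 to 10.2 (median 8.59) in luminal-low and 5.03 to 9.81 (median 7.86) in luminal-high tumours. Hbegf, Epgn, Btc and Egf differed less in their medians, at 9.65 and 9.22, 5.96 and 6.02, 5.16 and 5.51, and 4.57 and 4.47 in luminal-low and luminal-high tumours in that order.

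**Figure D4:**
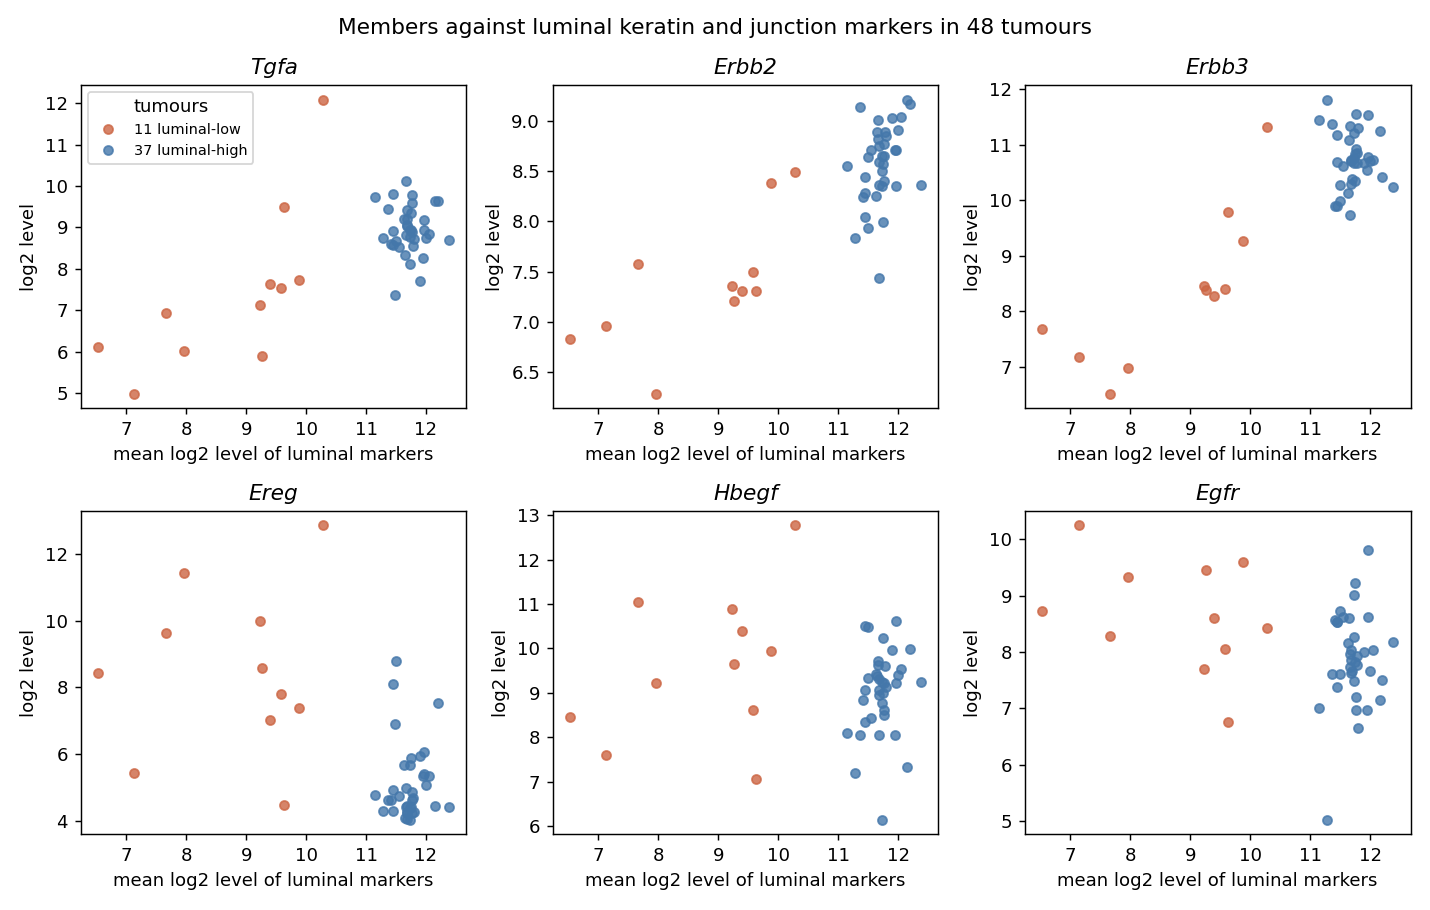
Log2 level of 6 members (vertical axes) against the mean log2 level of luminal markers (horizontal axes) in 48 tumours; points are tumours, in 2 colours for the 11 luminal-low and 37 luminal-high tumours. Of the 11 luminal-low tumours 9 lie below all luminal-high tumours for Erbb3, 7 for Erbb2 and 6 for Tgfa, and 4 lie above them all for Ereg.

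Over all 48 tumours, with group means removed, 11 of 36 pairs of members and 14 of 54 pairs of a member and a marker list passed a permutation test of Pearson's r (100000 permutations within groups, two-sided, adjusted over the pairs). Because the tumours fall into separate sets by luminal level, no pooled r is given for these pairs. Each relation was computed within each set, on levels, with permutations over the whole set that did not keep to host groups. In the 37 luminal-high tumours 2 of 36 pairs passed. Ereg and Hbegf rose together (r = 0.58, p = 0.00047, adjusted p = 0.0131; rho = 0.58, p = 0.00031, adjusted p = 0.0112), and r was 0.48 without the 2 tumours farthest in Ereg. Ereg was dim in this set, with a mean of 5.10 and a median of 4.68, below the 5.14 filter. It had passed that filter by its mean over all 48 tumours, 5.87, so its relations in the luminal-high tumours are less certain. Hbegf and Erbb3 ran opposite (r = -0.52, p = 0.00073, adjusted p = 0.0131; rho = -0.46, p = 0.00401, adjusted p = 0.0481), with r at -0.44 without the 2 tumours farthest in Hbegf. With group means removed 5 of 36 pairs passed, and these relations had permutation adjusted p of 0.0173 for Ereg and Hbegf (r = 0.57) and 0.0203 for Hbegf and Erbb3 (r = -0.55, rho adjusted p = 0.0566).

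In the 11 luminal-low tumours 2 of 36 pairs passed by Pearson's r on levels and 0 by Spearman's rho after adjustment. With group means removed 0 of 36 passed, which ends both calls. Tgfa and Erbb3 gave r = 0.88 (permutation p = 0.00065, adjusted p = 0.0187) and rho = 0.77 (p = 0.00793, adjusted p = 0.211). Hbegf and Btc gave r = 0.78 (permutation p = 0.00104, adjusted p = 0.0187) and rho = 0.72 (p = 0.0162, adjusted p = 0.211). Without the 2 farthest tumours r was 0.55 and 0.63. The 2 left out were repeats 22 and 3 of the irradiated wild-type hosts in both cases. In the luminal-high tumours the same pairs had r of 0.25 for Tgfa and Erbb3 and -0.39 for Hbegf and Btc.

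**Figure D5:**
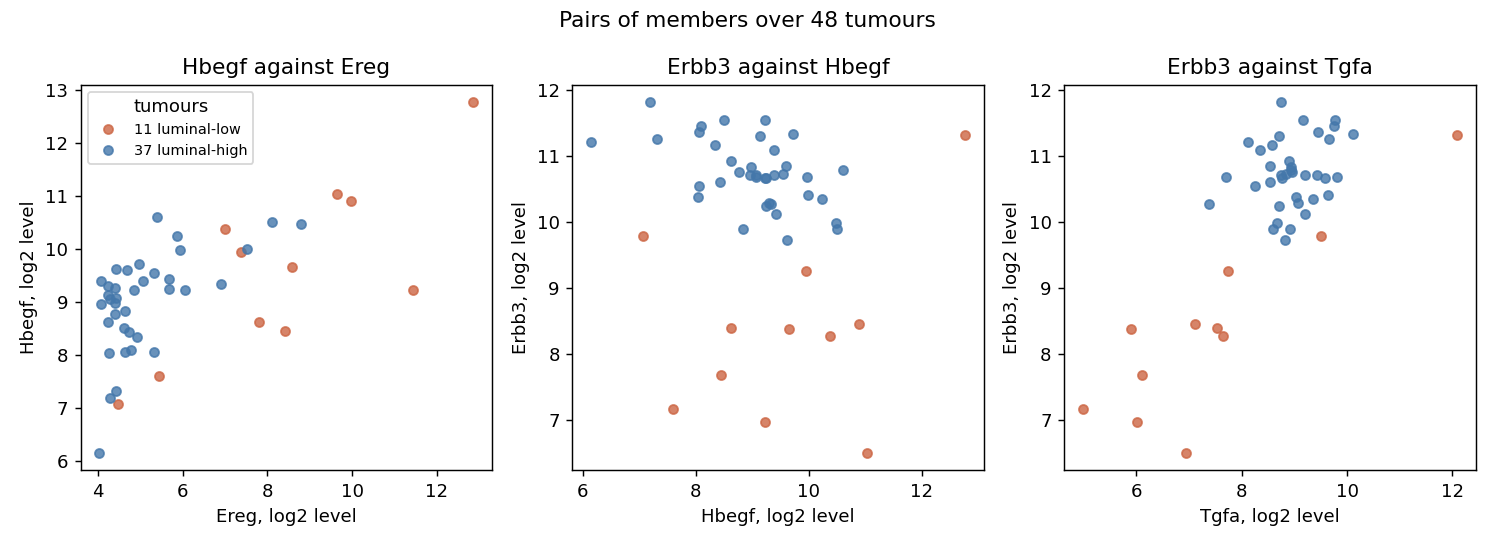
Log2 levels of 3 pairs of members over 48 tumours (both axes); points are tumours, in 2 colours for the 11 luminal-low and 37 luminal-high tumours. Hbegf rises with Ereg in the luminal-high tumours (r = 0.58) and Erbb3 falls as Hbegf rises (r = -0.52), while Erbb3 rises with Tgfa mainly among the luminal-low tumours (r = 0.88). The relation of Erbb3 with Tgfa did not pass by Spearman's rho or with group means removed.

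Marker lists were set against each member in the same way. In the luminal-high tumours Egfr rose with basal and myoepithelial markers (r = 0.61, permutation p = 0.00016, adjusted p = 0.00756; rho = 0.70, p = 1e-05, adjusted p = 0.00054, the smallest p that the permutations can give). It also rose with mesenchymal genes (r = 0.57, permutation p = 0.00028, adjusted p = 0.00756; rho = 0.60, p = 0.00013, adjusted p = 0.00351). Without the 2 tumours farthest in Egfr these were 0.66 and 0.59. Hbegf rose with mesenchymal genes (r = 0.49, permutation p = 0.00219, adjusted p = 0.0237; rho = 0.49, p = 0.0024, adjusted p = 0.0432), and r was 0.62 without the 2 farthest.

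Other relations rested on single tumours. Ereg with mesenchymal genes (r = 0.55, permutation p = 0.00048, adjusted p = 0.00864) had rho = 0.36 (p = 0.0303, adjusted p = 0.205) and fell to r = 0.29 without the 2 farthest tumours. Btc with hormone-sensing markers (r = 0.57, permutation p = 0.00167, adjusted p = 0.0225) had rho = 0.24 (p = 0.152, adjusted p = 0.494) and r = 0.28 without the 2 farthest, and with group means removed it did not pass (r = 0.48, permutation adjusted p = 0.119). Erbb2 with luminal markers was r = 0.37 in luminal-high tumours (permutation p = 0.0246, adjusted p = 0.163; rho = 0.41, adjusted p = 0.104), and Erbb3 with luminal markers was r = -0.08 (permutation p = 0.641, adjusted p = 0.818). In the 11 luminal-low tumours 0 of 54 relations passed. Those of Erbb3, Tgfa and Erbb2 with luminal markers were r = 0.79, 0.70 and 0.67, with permutation p of 0.00355, 0.0126 and 0.0238 and adjusted p of 0.171, 0.171 and 0.208.

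The promoters of Tgfa and Erbb2, both lower in most luminal-low tumours, are shown for their letters. The Tgfa stretch is chr6:86194972-86195271 and that of Erbb2 chr11:98412234-98412533, both on the plus strand of GRCm38.p6 and from RefSeq.
Tgfa: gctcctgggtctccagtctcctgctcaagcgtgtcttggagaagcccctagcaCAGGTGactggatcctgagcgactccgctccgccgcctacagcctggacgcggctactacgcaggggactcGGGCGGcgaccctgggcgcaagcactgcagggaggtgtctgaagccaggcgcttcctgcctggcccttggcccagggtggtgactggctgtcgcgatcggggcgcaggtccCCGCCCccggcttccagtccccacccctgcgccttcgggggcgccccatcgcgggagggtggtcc
Erbb2: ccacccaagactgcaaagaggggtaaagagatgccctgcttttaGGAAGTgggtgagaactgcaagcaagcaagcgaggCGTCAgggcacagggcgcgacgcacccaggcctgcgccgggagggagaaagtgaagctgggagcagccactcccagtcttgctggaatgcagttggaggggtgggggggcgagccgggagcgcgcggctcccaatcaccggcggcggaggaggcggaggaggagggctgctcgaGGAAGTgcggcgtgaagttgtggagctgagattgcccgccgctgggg
Capitals mark the same motifs as for Epgn, on either strand. Tgfa held 2 GC boxes and 1 E-box, and Erbb2 held 2 ETS motifs and 1 cyclic AMP motif (as CGTCA). Neither held AP-1 or the TATA sequence. Across all promoters 35.9% hold the GC box, 23.7% the ETS motif and 7.79% the AP-1 motif.

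For each member the 3 genes of most similar pattern were found by the correlation of deviations from group means over 48 tumours, among 12778 tested genes that are not members, as a description without a test. Values over 48 tumours also hold the split by luminal level. Erbb3 was most like Tmem184a, Il17re and Stard10, each at r = 0.92, and within the luminal-high tumours at 0.45, 0.51 and 0.49. Erbb2 was most like Ptpn3 (0.87), Lad1 (0.86) and Grb7 (0.86), with 0.47, 0.43 and 0.52 within the luminal-high tumours. Tgfa was most like Ppfibp2 (0.84), Galnt3 (0.84) and Cdcp1 (0.81), with 0.58, 0.42 and 0.36 there. These values were smaller in the luminal-high tumours, where luminal level varies less.

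Hbegf was most like Dusp5, a phosphatase induced by and acting on ERK (0.82), Nt5e (0.80) and Pla2g7 (0.76), which stayed at 0.72, 0.83 and 0.79 in luminal-high tumours. Ereg was most like Abcb1a (0.89), Oaf (0.86) and Peak1 (0.84), with 0.69, 0.56 and 0.57 there. Egfr was most like Cacna2d1 (0.76), Tifa (0.74) and Postn, a matrix protein of fibroblasts (0.73), with 0.73, 0.66 and 0.67 there. Epgn was most like Gdpd2 (0.75), Noct (0.69) and Hdac6 (0.64), and Egf most like Dhtkd1 (0.71), Pnck (0.66) and Spg20 (0.64). Btc was most like Ntn5 (0.74), Lypd1 (0.69) and Itga2 (0.68), but these were 0.25, -0.09 and 0.16 in luminal-high tumours and 0.94, 0.93 and 0.91 in luminal-low ones.

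Gene order along the chromosomes puts several members next to relatives or partners. Epgn, Ereg, Areg and Btc lie in that order on chromosome 5, after a run of chemokine genes. Over 48 tumours the correlation of deviations was 0.34 for Epgn with Ereg, 0.32 for Ereg with Btc and 0.17 for Epgn with Btc, with 0.14, -0.08 and 0.45 in luminal-high tumours. Epgn had 0.56 with the chemokine gene Cxcl2, at 0.35 in luminal-high and 0.77 in luminal-low tumours. Erbb2 on chromosome 11 had 0.86 with Grb7, 0.72 with Pgap3 and 0.70 with Mien1, which lie within 2 genes of it. In luminal-high tumours these were 0.52, 0.62 and 0.38. Pnmt and Tcap, also among the near neighbours, had -0.03 and -0.19.

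The other genes of the pathway were described in the luminal-high tumours by how many had r above 0.5 with a member. Of 16 ERK target genes 4 did so with Hbegf, namely Fosl1 (0.76), Dusp5, Etv4 and Ier3, beside 2.99% of all genes. With Ereg, which on average lay below the dim-gene filter in these tumours, there was 1, Fosl1 at 0.64, beside 2.24%. Among 9 shedding genes only Adam19, a metalloprotease, passed 0.5, with r = 0.57 for Ereg and 0.56 for Egfr, beside 2.24% and 3.79% of all genes. Lrig1, an inhibitor that promotes receptor degradation, was the only 1 of 9 inhibitors with Hbegf (0.66, beside 2.99%). The adaptor Gab2 was the only 1 of 17 relay genes with Egfr (0.63, beside 3.79%). Also above 0.5 were Ier3 with Tgfa (0.51), Araf with Egf (0.56), Grb7 with Erbb2 (0.52) and Lrig2 with Erbb3 (0.52). In that order the shares of all genes were 0.196%, 1.6%, 0.853% and 0.657%. Btc had a median r of -0.42 with the 16 ERK targets, the lowest being Etv4 at -0.62, beside a median of -0.01 over all genes. These are correlations across tumours of the same arrays, the genes were singled out after their values were seen, and no test is given.

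Between host groups 0 of the 1 neuregulin (Nrg2), 9 shedding, 9 inhibitor, 17 relay and 16 ERK target genes tested passed limma's adjusted threshold in any of the 5 tumour comparisons. Erbb4 was dim throughout, at 2.85 to 3.42. Nrg1 was at 3.86 to 5.10 in sham wild-type hosts but reached 9.70 in repeat 3 of the irradiated wild-type hosts, against a median of 4.22 in that group. Map2k2, a kinase that activates ERK, was 0.56 higher in heterozygous than in wild-type sham hosts (SE 0.19, p = 0.00394, limma adjusted p = 0.872) and 0.39 higher among irradiated hosts (SE 0.13, p = 0.00577, limma adjusted p = 0.801). In wild-type hosts Adam15, a shedding protease, was at -0.38 after irradiation (SE 0.19, p = 0.0501), and in heterozygous hosts Adam9 was at 0.50 (SE 0.22, p = 0.0278) and the kinase Araf at 0.47 (SE 0.18, p = 0.0108).

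Single tumours held the extremes of several ligands. Repeat 22 of the irradiated wild-type hosts was the highest of 48 for Ereg (12.9), Hbegf (12.8), Tgfa (12.1) and Btc (10.0). Its Erbb3 level of 11.3 ranked 7, while its luminal mean of 10.3 was the highest among luminal-low tumours. Its proliferation list mean, 9.38, was the lowest of the 48. Repeat 6 of the sham wild-type hosts had the lowest Erbb3 (6.51) together with high Hbegf (11.0, rank 2), Epgn (8.49, rank 3) and Ereg (9.63, rank 4), and its muscle list mean was 10.3. Repeat 14 of the irradiated heterozygous hosts was the highest for Erbb2 (9.21) and ranked 2 for Epgn (10.2) and Btc (7.90). It also had the highest hormone-sensing list mean (10.3) and the lowest macrophage list mean (9.05).

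Different probe sets of a gene mostly moved together in tumours. The second Hbegf probe set had r = 0.99 with the one used, the second Btc probe set 0.85 and the next brightest Egfr probe set 0.94. The dimmer Tgfa probe sets had 0.59 each and the dimmer Erbb3 probe set 0.63. The 5 remaining Egfr probe sets had r of -0.29 to 0.76 with the one used.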

How the data were processed

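Per the submitters' processing notes, the values come from RMA, a method that removes background, evens out arrays and condenses probes into 1 value. The authors deposited gland values as linear intensity and tumour values as log2. No RMA version is stated, nor whether glands and tumours were run jointly. Gland intensities were converted to log2 here. The median log2 value of an array lay between 4.86 and 4.93 for glands and between 5.84 and 5.96 for tumours. The number of arrays limits precision.

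Of 45101 probe sets 34958 have 1 gene in the platform annotation. Each gene was represented by its probe set of highest mean in the tissue, and genes under the 40th percentile (4.15 in glands, 5.14 in tumours) were set aside. Egf and Ereg fell below it in glands and Egf in tumours.

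Differences were fitted with limma 3.58.1 in R 4.3.3, with 1 mean per group, trended empirical Bayes and Benjamini-Hochberg adjustment over 12945 or 12786 genes, and the fit was tested on simulated data. Test values are printed where a member's unadjusted p was under 0.05, and for some other member differences named above that did not reach it. For list genes they are printed where p was among the 2 smallest. Members and lists were chosen with earlier results of these data known. Same-numbered sham and 4-week glands deviated together (r between 0.123 and 0.216 for wild-type, between 0.112 and 0.316 for heterozygous pairs), which the labels do not explain. No other groups with 3 or more same-numbered pairs had every r above 0.1.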

Additional observations from a re-analysis of the deposited data

Results flagged for a closer look

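Each member was checked for a tumour far from the others of its group in the 3 tumour groups of 6 to 10, which made 27 checks, and chance flags about 1 in 20. Btc in repeat 14 of the irradiated heterozygous hosts was 7.90 with the next tumour at 6.03, a gap of 0.682 of the group's range against a critical value of 0.466. Egf in repeat 2 of the sham wild-type hosts was 7.15 with the next at 4.99, a gap of 0.678 of the range against 0.493. That tumour was luminal-high, with a hormone-sensing list mean of 5.06, the lowest but 1.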

How the results depend on the processing

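Counts of members past the adjusted threshold stayed at 0 in all 561 alternative fits of the 14 comparisons, and the 9 named gland differences kept their sign and their side of the threshold in 256 alternatives. The replicate block gave 0 members in every comparison and -1.86 (adjusted p = 0.251) for Epgn from heterozygous sham to 4 weeks, and changed no other call. The Epgn differences ranged from -2.08 to -1.37 from heterozygous sham to 4 weeks, from 1.49 to 2.44 between genotypes in sham glands and from -1.57 to -0.97 from heterozygous sham to 1 week. The Btc differences moved most without the muscle-rich glands, a fit that leaves a single wild-type sham gland. From wild-type sham to 1 week the Btc difference changed little with the muscle list mean as a covariate. Tgfa differences shrank most with the mean of its probe sets.

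Correlation counts moved with the tumours used. With group means removed, pairs of members fell from 11 over all tumours to 5 within the 37 luminal-high and 0 within the 11 luminal-low tumours, and on levels from 12 to 2 and 2. Pairs of a member and a marker list fell from 14 to 4 and 0 with group means removed and from 14 to 5 and 0 on levels. Sets of 11 and 37 tumours hold fewer samples than 48. Signal over background per probe was not measured, so changes of dim ligands in glands and of Ereg in luminal-high tumours are least certain.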
